A study of Mus musculus with 6 samples.

Results

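The Cd300 genes examined here are Cd300a, Cd300lb, Cd300ld, Cd300lf and Cd300lg, 5 of the 23420 genes in the expression table, and they were chosen by name as members of the mouse Cd300 receptor family, with the level of Cd300lf set against its relatives in the same library. They were measured by RNA sequencing of tuft cells from the ileum in 6 libraries that form 1 group. Each library is labelled as a mouse replicate, and whether RNA of several mice was pooled is not given in the sources used here, so p-values measure only the spread between these samples. The mice were Gfi1b-eGFP/+ on the C57BL/6J background (strain C57BL/6 in the sample labels), were not described as treated, and carry enhanced green fluorescent protein at 1 allele of Gfi1b, a transcription factor gene whose activity marks tuft cells in the epithelium. The sort took viable cells with GFP and EpCam (an epithelial surface protein) and without CD45 (the common surface protein of leukocytes). Every library carries this allele, and cells of other sorts were not analysed here, so a level below describes the sorted cells and cannot be compared with another cell type or genotype.

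CD300 proteins are receptors with 1 immunoglobulin-like domain outside the cell, best known from myeloid cells, where they bind membrane lipids such as phosphatidylserine, phosphatidylethanolamine or ceramide. CD300LF and CD300A are regarded as inhibitory members, whose long cytoplasmic tails hold tyrosine motifs that recruit phosphatases, whereas CD300LB and CD300LD have short tails and signal through adaptors. CD300LF is the entry receptor of mouse norovirus, and tuft cells are the intestinal cells that persistent strains of the virus infect.

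Cd300lf was abundant in every library, while its 4 relatives were low or listed at 0. Its expression was 823.4, 736.0, 462.2, 594.2, 478.2 and 596.4 TPM (the share of all transcripts in a library, corrected for transcript length and scaled to a sum of 1000000) in replicates 1 to 6. The mean was 615.1 ± 142 TPM (SD, n = 6). Replicates 1 and 2 were the highest and replicates 3 and 5 the lowest, a 1.78-fold range. By rank, Cd300lf stood between place 132 and place 279 of all genes in each library (median 193), which is the 97.9th to 99.0th percentile among genes listed above 0. Fewer tuft cells in a sort and less Cd300lf RNA per tuft cell cannot be told apart in such bulk samples.

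Cd300a, the other inhibitory member, was the second most abundant member in all 6 libraries. It had 10.5, 12.9, 9.24, 12.3, 13.3 and 14.8 TPM in replicates 1 to 6, a mean of 12.2 ± 2.00 TPM (SD, n = 6) and a 1.60-fold range. Its place was in the middle of the expressed genes, at the 45.0th to 60.5th percentile (median 53.7). Its values do not come near those of Cd300lf, as the TPM of Cd300lf was 36.1 to 78.1 times that of Cd300a within a library (median 49.2).

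The activating members Cd300ld and Cd300lb were at the bottom of the scale, and so was Cd300lg. Cd300ld, a close relative of Cd300lf in sequence, was listed at 0.04, 0.07, 0.17 and 0.10 TPM in replicates 2, 3, 4 and 6. It was at 0 in the other two libraries. Cd300lb, which acts through adaptors in myeloid cells, was listed at 0 in all 6 libraries. Cd300lg, which encodes the endothelial protein nepmucin, was also listed at 0 in all 6. TPM keeps no sequencing depth, so genes at 0 have no known limit of detection, and a 0 can also come from the estimate itself. Of the 5 members, 2 were listed above 0 in every library, against 47.2% of all genes, and 2 were at 0 in every library, against 32.9% of all genes. Cd300lf made up 97.3% to 98.7% of the summed TPM of the 5 members, with a mean of 98.0% ± 0.510 (SD, n = 6).

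**Figure D1:**
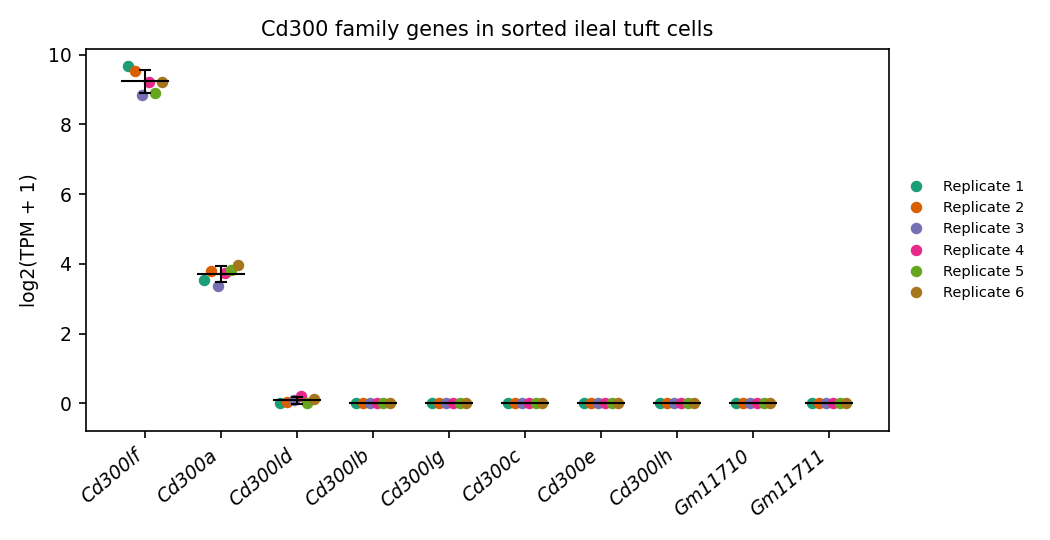
Expression of the 10 rows of the table matched to Cd300 family genes on the log2(TPM + 1) scale, with 1 point per library coloured by replicate, horizontal lines at the mean and bars of 1 SD over 6 libraries. Cd300lf lies near 9 and Cd300a near 4 without overlap, and the other 8 rows lie at or close to 0, while AF251705, a row of uncertain identity, is not plotted.

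To ask whether Cd300lf stood above its relatives beyond the spread between libraries, the difference in log2(TPM + 1) was taken within each library. Cd300lf exceeded Cd300a by 5.53 ± 0.38 on this scale (SD, n = 6; range 5.07 to 6.16) and was higher in 6 of 6 libraries (exact permutation of the sign in each library, two-sided, p = 0.03125, with an adjusted p = 0.03125). Cd300lf exceeded Cd300ld by 9.15 ± 0.36, again in 6 of 6 libraries with the same exact permutation p and adjusted p of 0.03125. Cd300ld was at 0 or near it, so this difference is close to the level of Cd300lf itself and its test carries little information. Cd300lb and Cd300lg were at 0 throughout, so the difference from each, 9.24 ± 0.33, is the level of Cd300lf itself and a test of it carries no information. This p is the smallest that 6 libraries allow, and p-values were adjusted by the Benjamini-Hochberg method over 5 comparisons, which include those with Cd300lb and Cd300lg and one with the most abundant other member, which was Cd300a in every library. All 5 stood at this smallest p, so the adjustment left it unchanged and adds no support. The tests were chosen with earlier results of these data known. Differences from genes at or near 0 depend on the 1 TPM that was added before taking the logarithm, and are no fold changes. The exact Mann-Whitney test, which the study's methods name and which does not pair genes within a library, gave p = 0.00216 for Cd300a (adjusted p = 0.00216). It gave the same values for Cd300ld, with the limit stated above. Within replicates 1 to 3 Cd300lf exceeded Cd300a by 5.80 ± 0.33, and within replicates 4 to 6 by 5.26 ± 0.21 (SD, n = 3 each), 2 sets that stand apart in the level of Gm20594, each too small to be tested alone.

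The order of the levels was Cd300lf, Cd300a, Cd300ld and then Cd300lb and Cd300lg together at 0. Cd300a exceeded Cd300ld in 6 of 6 libraries, by 3.62 ± 0.23 on the log2(TPM + 1) scale (SD, n = 6; exact sign-flip permutation p = 0.03125). This comparison was added after the values were seen, and its adjusted p of 0.0625 over 2 added comparisons did not pass 0.05. The difference is also close to the level of Cd300a itself, as Cd300ld was at 0 or near it. The other added comparison, of Cd300ld with Cd300lb, has no useful test, since Cd300lb was at 0 in every library and Cd300ld in 2 of them. On that scale Cd300ld was 0.09 ± 0.09 (SD, n = 6) above 0.

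Further rows of the Cd300 family were held by the table under current or older symbols. Cd300c, Cd300e, Cd300lh (an older name that RefSeq gives for Cd300ld3), Gm11710 (Cd300ld4) and Gm11711 (Cd300ld5) were listed at 0 in every library. Cd300c2 and Cd300ld2 have no row under those symbols. RefSeq gives Cd300c also as an older name of Cd300c2, so which of the pair the row Cd300c holds is uncertain. A row named AF251705, which the reference tables do not match to a gene and which may be an older name of a Cd300 family gene, had 17.2 TPM in replicate 1, 1.97 TPM in replicate 3 and 0 in the other 4. In replicate 1 it was thus above Cd300a. The statements on the family leave this row out, and if it belongs to the family it is an exception to the low values of the genes other than Cd300lf and Cd300a. Of relatives outside the family, Pigr, the polymeric immunoglobulin receptor of epithelial cells, had 320.7 to 733.7 TPM, with its highest value in replicate 3, where Cd300lf was lowest. Pigr was the only one of the 11 rows of this list above 0 in every library, against 47.2% of all genes. At 0 in every library were 8 rows, against 32.9% of all genes. Fcamr, an Fc receptor for IgA and IgM, had 4.19 TPM in replicate 1, 1.12 TPM in replicate 3 and 0 elsewhere. The genes of the myeloid receptors Trem1 and Trem2 and the IgM receptor gene Faim3 (now Fcmr) were at 0 in all 6.

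Because members resemble one another, it was asked how much of each transcript could be mistaken for another. Over aligned coding bases, Cd300ld was 84.7% identical to Cd300lf, ahead of Cd300lb (68.9%), Cd300lg (64.9%) and Cd300a (62.4%). Cd300lf and Cd300ld share an unbroken identical run of 134 coding bases, within the exon that encodes the immunoglobulin-like domain. It is shown because a read that falls inside it fits both genes equally. The windows below give this run with 30 bases on each side, in GRCm38 coordinates with GENCODE M21 gene models, as coding strand 5′ to 3′. They lie at chr11:115126120-115126313 (minus strand) in Cd300lf and at chr11:114987312-114987505 (minus strand) in Cd300ld, and capitals mark the 7 bases that differ.
Cd300lf: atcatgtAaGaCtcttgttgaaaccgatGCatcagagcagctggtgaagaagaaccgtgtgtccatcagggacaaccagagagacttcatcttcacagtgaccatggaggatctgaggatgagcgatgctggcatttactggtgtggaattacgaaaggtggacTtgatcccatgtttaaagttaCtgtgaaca
Cd300ld: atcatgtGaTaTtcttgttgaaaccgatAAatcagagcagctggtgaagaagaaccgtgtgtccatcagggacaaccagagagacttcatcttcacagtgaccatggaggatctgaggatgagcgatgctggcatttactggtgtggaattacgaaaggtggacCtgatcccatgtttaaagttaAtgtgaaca
In the same way, the longest identical run between Cd300lf and Cd300a had only 11 bases. It lies in the exon of the same domain, and with 30 bases on each side the windows are at chr11:115126211-115126281 (minus strand) in Cd300lf and at chr11:114893394-114893464 (plus strand) in Cd300a. Capitals again mark the bases that differ, which were 30 of 71.
Cd300lf: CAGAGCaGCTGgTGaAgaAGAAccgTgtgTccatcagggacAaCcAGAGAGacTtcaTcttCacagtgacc
Cd300a: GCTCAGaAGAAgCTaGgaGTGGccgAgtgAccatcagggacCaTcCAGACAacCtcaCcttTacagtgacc

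Of the 1886 different stretches of 25 bases in the coding transcripts of Cd300lf, 198 (10.5%) also occurred in a transcript of another gene, and 145 of them in Cd300ld. For Cd300a, 542 of 4620 (11.7%) were shared, 151 of them with Cd300c2. For Cd300ld it was 226 of 2605 (8.68%), for Cd300lg 17 of 2752 (0.618%) and for Cd300lb 0 of 2873. With 1 mismatch allowed and only family genes compared, 253 stretches (13.4%) were shared for Cd300lf and 306 (11.7%) for Cd300ld. That count was 216 (4.68%) for Cd300a and 0 for Cd300lb and Cd300lg. Most of each member was therefore its own sequence in these gene models. The copies Cd300ld3, Cd300ld4 and Cd300ld5 are different, with 84.9%, 97.0% and 100% of their stretches shared, so that their values of 0 are uncertain. RSEM, which the authors used, divides reads that fit several transcripts by estimated shares, and how it divided those of the run shared by Cd300lf and Cd300ld was not tested. Cd300a and Cd300c2 share a longer identical run, of 140 coding bases, and Cd300c2 has no row under that symbol. How reads of that run bear on the level of Cd300a was not tested.

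The family lies on chromosome 11, in a cluster with Cd300lf at 1 end and Cd300a at the other. Cd300lf (ENSMUSG00000047798.15) runs over chr11:115116214-115133992 on the minus strand of GRCm38, with 1011 coding bases in 7 exons. Cd300a (ENSMUSG00000034652.12) runs over chr11:114890041-114904654 on the plus strand, and its start is 244 kb from that of Cd300lf. Between them lie Cd300lb (ENSMUSG00000063193.8; chr11:114922781-114934386, minus strand) and Cd300ld (ENSMUSG00000034641.2; chr11:114982274-114989922, minus strand). The 2 members listed above 0 in every library were thus those at the ends, and no row matched to a family gene between them exceeded 0.17 TPM (AF251705 has no position here). Cd300lg (ENSMUSG00000017309.11; chr11:102041509-102055620, plus strand) is on the same chromosome but outside the cluster. Cd300lf lies inside the span of Rab37, a gene of a small GTPase of secretory vesicles that is transcribed from the opposite strand, and the annotated exons of the 2 genes share 0 bases. Rab37 had 1.40 to 10.3 TPM (median 6.51) and was below Cd300lf in 6 of 6 libraries.

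**Figure D2:**
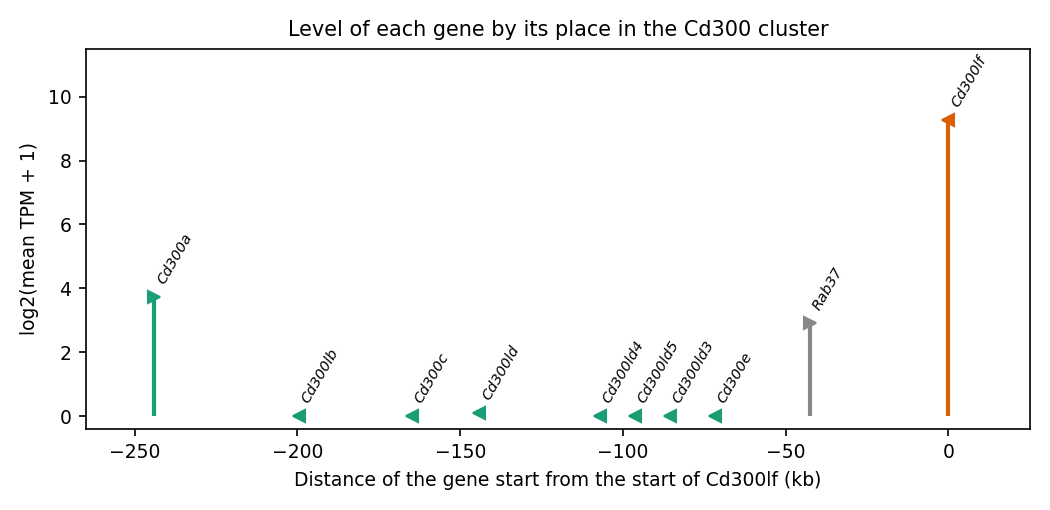
Mean level of each gene of the cluster over 6 libraries as log2(mean TPM + 1), against the distance of its start from the start of Cd300lf in kb, with arrowheads that give the direction of transcription and Rab37 in grey. Cd300lf (orange) and Cd300a stand at the ends of the cluster, and the family genes plotted between them are at or near 0.

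Facts of the libraries that bear on these values are few. Between 13044 and 13308 genes per library were listed above 0, and Spearman correlations across genes between libraries were 0.915 to 0.937. Rn45s, the ribosomal RNA precursor, took 23.1% to 32.6% of TPM, which lowers the value of every other gene by a share that differs between libraries. Replicates 1 to 3 had 15588 to 21283 TPM of Gm20594 and replicates 4 to 6 had 51804 to 56441 TPM, a split that the labels do not name as a batch. Rn45s was also lower in replicates 1 to 3, at 230770 to 251446 TPM against 266590 to 325584 TPM in replicates 4 to 6. Cd300lf overlapped between these sets, at 462.2 to 823.4 and 478.2 to 596.4 TPM, and so did Cd300a, at 9.24 to 12.9 and 12.3 to 14.8 TPM. The ratio of Cd300lf to Cd300a was 50.0 to 78.1 in replicates 1 to 3 and 36.1 to 48.3 in replicates 4 to 6, a narrow gap that was not tested. The sets were chosen after the values were seen, and how many other pairs of genes separate them was not examined, so no difference between the sets is drawn from it.

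Set beside genes of tuft cells, Cd300lf was among the most abundant. All of the 13 tuft cell marker genes in the table were above 0 in every library, against 47.2% of all genes. Of the 13, 2 had a mean above that of Cd300lf. They were Trpm5, the cation channel of taste transduction, with 1141 TPM and the kinase gene Dclk1 with 628.3 TPM. Trpm5 alone exceeded Cd300lf in every library, a count of 1 of 13 against 0.431% of all genes. Cd300lf was 0.859 to 1.08 times Dclk1, with a mean ratio of 0.976 ± 0.0757 (SD, n = 6). Its ratio to Trpm5 was 0.536 ± 0.0381 and its ratio to Pou2f3, the transcription factor gene on which tuft cells depend, was 3.42 ± 0.235 (SD, n = 6 each). The coefficient of variation of these 3 ratios was 7.76%, 7.10% and 6.87%, where that of Cd300lf itself was 23.1%. These 3 were the lowest among the ratios to the 13 tuft genes, for which it ran from 6.87% to 22.4% (median 16.0%).

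Across libraries Cd300lf was higher where the tuft cell list was higher (Pearson r = 0.907, exact permutation p = 0.0167, adjusted p = 0.05; n = 6). The adjusted value, over 3 relations, is at 0.05 and not below it. By ranks the relation was weaker (Spearman rho = 0.714, exact permutation p = 0.136, adjusted p = 0.408), and r was 0.454 without replicates 1 and 2, so it rests on those libraries. Centred within replicates 1 to 3 and 4 to 6, r was 0.991 (exact permutation p = 0.0556 over 36 pairings). The summed level of the goblet cell genes was lowest in replicates 1 and 2, where Cd300lf was highest, at 1057 and 807.9 TPM. It was 1970 to 4521 TPM in the others, with its highest value in replicate 6, where Cd300lf was not lowest. The r with Cd300lf was -0.805 for Tff3, -0.692 for Agr2, -0.657 for Muc2, -0.572 for Clca3 and -0.473 for Zg16. For the rest of the list it was -0.417 for Fcgbp, -0.0964 for Spdef and 0.630 for Clca1, a gene of low level (mean 1.90 TPM). Enterocyte genes went both ways, with r of 0.803 for Vil1, 0.685 for Sis, 0.377 for Anpep, 0.290 for Apoa1 and 0.140 for Fabp2. It was -0.231 for Slc10a2, -0.528 for Fabp6 and -0.751 for Alpi. Fabp1, a gene on none of the lists, had r = 0.972 at a mean of 7410 TPM. The part of goblet cell or enterocyte RNA in the level of Cd300lf was not tested. The relation of Cd300lf with the pan-leukocyte list did not pass 0.05 (r = -0.168, exact permutation p = 0.75, adjusted p = 0.796; rho = 0.0286, exact permutation p = 1), although r was 0.989 without replicates 1 and 6. With the number of genes listed above 0, r was 0.137 (exact permutation p = 0.796, adjusted p = 0.796; rho = 0.257, exact permutation p = 0.658) and 0.886 without replicates 1 and 5. Between Cd300a and Cd300lf, r was 0.0863 over the 6 libraries, given as a description.

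The genes whose pattern over the 6 libraries was most like that of Cd300lf, among 12031 with a mean of at least 1 TPM, were 4933421O10Rik (r = 0.995 on the log2(TPM + 1) scale), Mocs2 (0.991), Eps8l3 (0.990), Trim40 (0.988) and Larp1b (0.988). Mocs2 encodes a subunit of molybdopterin synthase, and Eps8l3 a relative of the actin regulator EPS8. Their mean levels were 10.2, 233.2, 702.1, 114.6 and 33.6 TPM in the same order, so the likeness was not limited to abundant genes. In all, 227 genes (1.89%) reached r of at least 0.9, as did 4 of the 13 tuft cell markers. The number of genes moved to 142 under median-of-ratios rescaling. With 1 library left out it was 280 to 682, the most without replicate 3 (682), followed by 6 (513), 4 (429) and 5 (391). An r of 0.9 is reached more easily with fewer libraries, so those counts cannot be set directly against 227. Siglec5 (r = 0.983) came sixth and Pou2f3 (r = 0.977) came 14th. Over the 13 tuft cell markers r ran from 0.445 for Hpgds to 0.977 for Pou2f3 (median 0.825). These correlations rest on 6 points, share the scale of each library and carry no test.

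**Figure D3:**
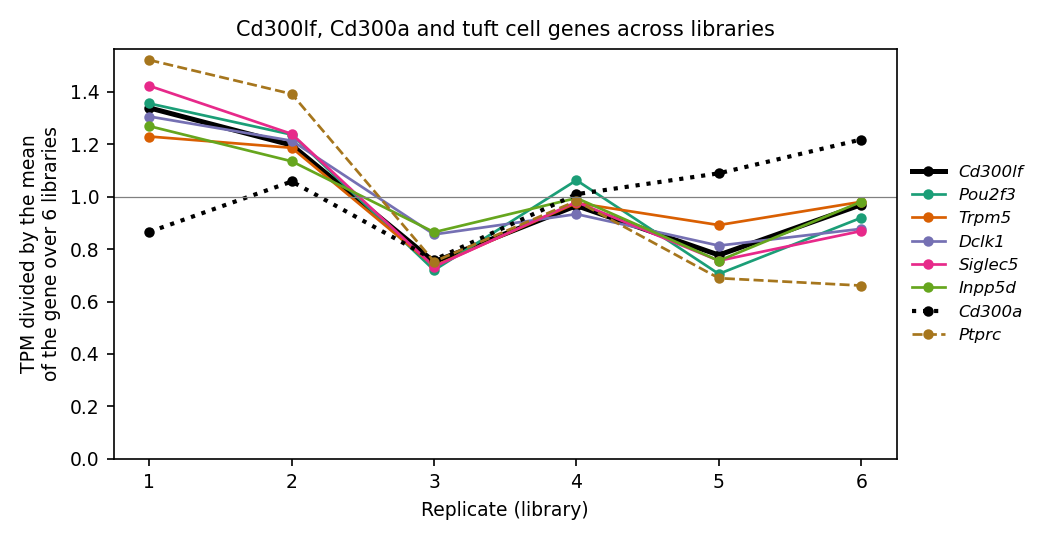
TPM of Cd300lf, Cd300a, tuft cell genes, Siglec5, Inpp5d and Ptprc in each library, divided by the mean of that gene over 6 libraries, with lines that join the values of 1 gene and imply no order of the replicates. Cd300lf (thick black) runs with Pou2f3, Trpm5, Dclk1, Siglec5 and Inpp5d, highest in replicates 1 and 2, whereas Cd300a (dotted) is highest in replicate 6. The tuft cell genes plotted, Pou2f3, Trpm5 and Dclk1, have the highest r with Cd300lf of the 13 tuft cell markers. Over those markers r ran from 0.445 to 0.977.

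Genes that act downstream of Cd300 receptors were measured next, on a list of 12. Of these, 11 were above 0 in every library, against 47.2% of all genes. The median of mean levels of the 12 was 12.9 TPM, against 1.24 TPM over all genes. Ptpn6, the gene of a phosphatase recruited to inhibitory tails, had 871.8 to 1266 TPM (mean 1069 ± 168, SD, n = 6), above Cd300lf in every library. Inpp5d, which encodes an inositol phosphatase of the same kind of complex, had 143.9 to 241.7 TPM (mean 190.5 ± 35.0), and Cd300lf was 3.21 ± 0.227 times its level. The related phosphatase gene Ptpn11 was low, at 4.75 to 12.2 TPM. Of 3 phosphatase genes on the list, the highest level was thus that of Ptpn6.

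The Src-family kinases phosphorylate the tails of such receptors. Of these, Lyn had 53.4 to 105.0 TPM and Src had 13.7 to 20.7 TPM, and Csk, which restrains these kinases, had 116.9 to 168.4 TPM. Of the 12 genes listed, 1, Ptpn6, was above Cd300lf in every library, against 0.431% of all genes. Above Cd300a in every library were 4, Ptpn6 with Inpp5d, Csk and Lyn, against 17.7% of all genes. Over the libraries r with Cd300lf was 0.959 for Inpp5d, the 1 gene of the list that reached 0.9.

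The adaptors through which activating members signal were low. Tyrobp, the gene of DAP12, had 2.98 to 10.4 TPM (median 4.88), Fcer1g, the gene of the Fc receptor gamma chain, had 1.10 to 13.5 TPM (median 4.32), and Hcst, the gene of DAP10, had 0 to 3.67 TPM (median 1.24). Each of the 3 was below Cd300lf in every library. Syk, the kinase that these adaptors engage, had 23.2 TPM in replicate 1 and 1.41 to 11.2 TPM in the others. Pik3r1, the regulatory subunit of phosphoinositide kinase, and Grb2, an adaptor protein gene, had mean levels of 14.3 and 11.6 TPM.

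**Figure D4:**
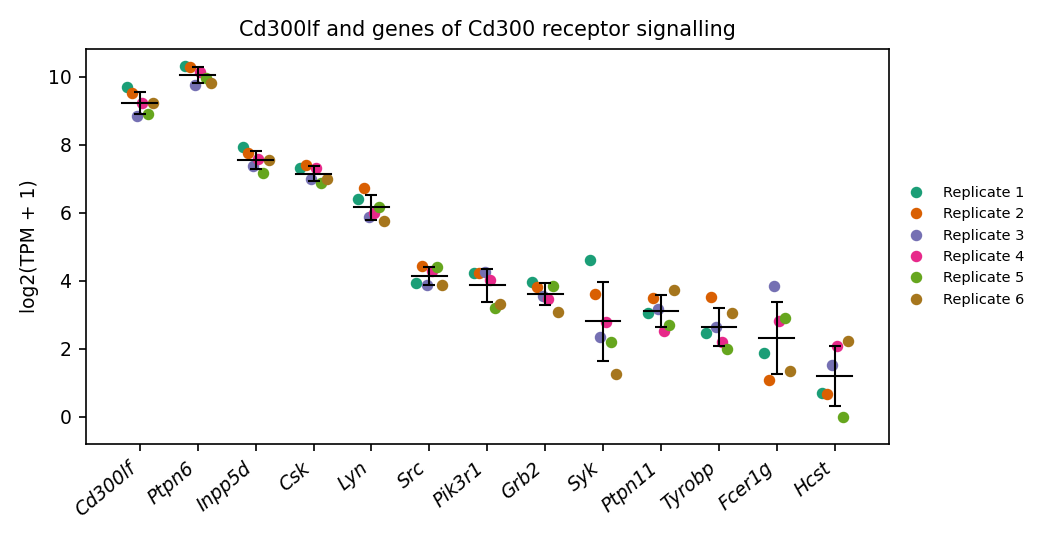
Cd300lf and 12 genes of Cd300 receptor signalling on the log2(TPM + 1) scale, with 1 point per library coloured by replicate, lines at the mean and bars of 1 SD over 6 libraries. Ptpn6 lies above Cd300lf, and the adaptor genes Tyrobp, Fcer1g and Hcst lie at the low end.

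Other receptor genes of leukocytes were compared with Cd300lf to see whether it stood alone. Of 21 paired and lectin-type receptor rows, 3 were above 0 in every library, against 47.2% of all genes. At 0 in every library were 5 rows, against 32.9% of all genes. The median of mean levels of the 21 rows was 0.243 TPM, against 1.24 TPM over all genes. The exception was Siglec5, an older symbol that RefSeq gives for Siglecf and also for Siglece, which has a row of its own, so the identity of the row is uncertain. It had 683.9 to 1328 TPM (mean 933.4 ± 259, SD, n = 6), was above Cd300lf in every library, and Cd300lf was 0.666 ± 0.0407 times its level. The next in mean level, Milr1 with 1.55 TPM and Sirpa with 1.19 TPM, were far lower. Of 9 rows of other phosphatidylserine receptors, 1 was above 0 in every library, against 47.2% of all genes. It was Mertk at 0.97 to 14.1 TPM, while Tyro3 (mean 1.95 TPM) and Stab1 (mean 0.245 TPM) came next. Havcr1 and Timd4, receptors of the TIM family, were at 0 in every library. None of these 9 rows reached the level of Cd300lf in any library.

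For norovirus, a list of 12 genes with known roles in infection or its control in the host was examined beside its receptor gene. All 12 were above 0 in every library, against 47.2% of all genes, with a median of mean levels of 35.2 TPM. Above Cd300a in every library were 10, against 17.7% of all genes. Above Cd300lf in every library were 0, against 0.431% of all genes. Il10rb, a chain of the interferon lambda receptor, was the highest with 86.7 to 210.3 TPM (mean 146.6 ± 49.8, SD, n = 6). Caprin1 and G3bp1, genes of proteins of stress granules, had means of 75.1 and 67.5 TPM. The other chain of the interferon lambda receptor, Ifnlr1, had 1.82 to 5.60 TPM, below both Cd300lf and Cd300a in every library.

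Because Cd300 genes are known from leukocytes and endothelium, the markers of those cells were read beside them. Cells had been sorted without CD45, yet Ptprc, the gene of CD45, had 74.2 to 170.9 TPM, highest in replicates 1 and 2 as was Cd300lf (r = 0.875). The other 6 genes of the pan-leukocyte list were lower in mean level, led by Cd52 with 10.8 TPM and Coro1a with 6.01 TPM, and the summed level of the 7 genes was 100.5 to 190.9 TPM. The macrophage and dendritic cell list of 12 genes summed to 20.6 to 57.03 TPM, with mean levels of 14.3 TPM for Itgam, 6.96 TPM for Cd14 and 4.16 TPM for Lyz2. Csf1r and Emr1, which define macrophages, were at 0 to 4.36 TPM and 0 to 1.13 TPM. The highest value of any gene on this list in any library, 20.7 TPM, was below the lowest of Cd300lf.

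In the neutrophil list of 7 genes, summing to 8.42 to 25.7 TPM, S100a8, S100a9, Camp and Ngp were at 0 in every library, and Cxcr2 was the highest with a mean of 16.4 TPM. In the mast cell and eosinophil list of 9, summing to 101.7 to 171.4 TPM, Kit made up most with 100.2 to 157.5 TPM, and Ms4a2, Prg2 and Epx were at 0 throughout. Lymphocyte genes were more variable. The 8 T cell and intraepithelial lymphocyte genes summed to 31.1 to 229.4 TPM, highest in replicates 5 and 6 through Gzma, and the 5 B and plasma cell genes to 0 to 38.2 TPM, with Ms4a1 and Mzb1 at 0. In the endothelial list of 8, summing to 8.61 to 38.8 TPM, Cdh5, Kdr and Emcn were at 0 in every library as was Cd300lg, while Plvap and Cd34 had mean levels of 11.2 and 6.16 TPM. Cd300a was of the same order as several of these leukocyte genes, and the part of leukocyte RNA in its level was not tested.

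**Figure D5:**
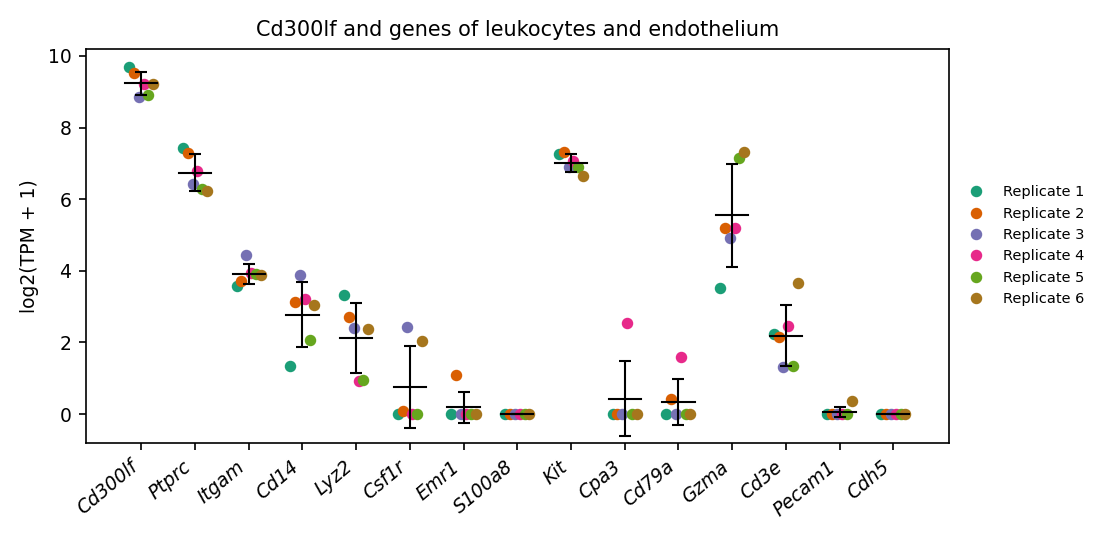
Cd300lf and genes of leukocytes and endothelium on the log2(TPM + 1) scale, with 1 point per library coloured by replicate, lines at the mean and bars of 1 SD over 6 libraries (bars that reach below 0 belong to genes at 0 in most libraries). Cd300lf lies above all other genes plotted, and the macrophage genes Csf1r and Emr1, S100a8 and the endothelial genes Pecam1 and Cdh5 are at or near 0 in most libraries.

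Markers of other epithelial cells were present as well. The 13 tuft cell genes summed to 3499 to 5820 TPM. The 7 Paneth cell genes, led by Defa24, Defa17 and Lyz1, summed to 3563 to 21421 TPM. The 8 goblet cell genes, led by Zg16, Tff3 and Agr2, summed to 807.9 to 4521 TPM. The 8 enterocyte genes, led by Fabp6, Apoa1 and Fabp2, summed to 3276 to 6547 TPM. The 9 enteroendocrine genes summed to 379.2 to 536.5 TPM, of which Sct made up most with 330.8 to 473.7 TPM. Gcg and Chgb came next, with means of 18.2 and 13.8 TPM. The part of these other epithelial cells in the level of Cd300lf was not tested, as epithelium without tuft cells was not analysed here.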

How the data were processed

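Tuft cell RNA was amplified by a modified SMART-Seq2 protocol and sequenced in paired-end mode. The sample labels also name a droplet preparation and a 3' polyA protocol, whereas the methods describe SMART-Seq2 alone. Bcl2Fastq v2.17.1.14 was used to make the reads, and Bowtie placed them on UCSC mm10 transcripts, with 1 mismatch allowed, no more than 15 alignments per read and a largest fragment of 2000 bases. The authors deposited TPM values from RSEM v1.2.3. The submitters' processing notes also name TopHat and DESeq2, and no count model was run here. Neither a strand setting nor a gene filter is given in the sources used here. TPM sums to 1000000 per library and keeps no read number, so depth is unknown.

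Columns were matched to replicates by number. Values were used as deposited, as log2(TPM + 1), and genes were compared within library by exact permutation of the signs of the differences (64 assignments, two-sided). Correlations used all 720 pairings, with Benjamini-Hochberg adjustment over 3 relations and the median of each list as its level. The members, marker lists and tests were chosen with earlier results of these data known. The named genes are the members, the relatives held in the table, the signalling genes, the 3 genes of highest mean in every other list, genes overlapping Cd300lf and the 5 most like it across libraries. Genes named outside this rule, such as Siglec5 as a reference for ratios, Pou2f3, Il10rb's partner Ifnlr1 and markers at 0, were chosen after their values were seen. Alternatives were other pseudocounts, a filter on low values, 2 rescalings, the Mann-Whitney test and leaving out each library.

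Identity and shared stretches were computed from GENCODE M21 transcripts on GRCm38, the assembly of mm10, and not from the authors' own gene models. Older symbols were matched through RefSeq names. Rescaling and the scan of correlations were tested on simulated data. The work used Python 3.11.15, numpy 2.4.6, pandas 2.3.3, scipy 1.17.1, matplotlib 3.10.9 and Biopython 1.88. Some listed genes are not reported here and were left out of the lists' counts and sums. The quantitative PCR, imaging and other experiments of the study were not analysed here.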

Additional observations from a re-analysis of the deposited data

Results flagged for a closer look

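Of 40 measures screened by Dixon's ratio of the gap to the whole range, 2 had 1 library apart from the others beyond the 95% critical value for 6 libraries, and chance does so in about 1 of 20 groups. AF251705 was at 17.17 TPM in replicate 1, with 1.97 TPM the nearest other value (ratio 0.885), and its mean went from 3.19 to 0.394 TPM without that library. Fcamr was at 4.19 TPM in replicate 1, with 1.12 TPM the nearest (ratio 0.733), and its mean went from 0.885 to 0.224 TPM. Both genes were at 0 in the same 4 libraries. Cd300lf, Cd300a and Cd300ld had no library so far apart, and Cd300lb and Cd300lg, at 0 in every library, were not screened.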

How the results depend on the processing

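Cd300lf exceeded each relative in every library under all alternatives, but pseudocounts and rescalings cannot change which of 2 genes is higher within a library, so the kept order is no sign of stability. Leaving out 1 library at a time, the log2 difference was 5.40 to 5.62 from Cd300a, 9.15 to 9.31 from Cd300lb and Cd300lg and 9.04 to 9.23 from Cd300ld, with a smallest possible exact p of 0.0625, and the mean of Cd300lf was 573.4 to 645.6 TPM. Rescaling without Rn45s raised that mean to 846.3 TPM, as it raises every value. Centring within the sets of 3 libraries, chosen after seeing the data, gave the tuft cell list r = 0.991 (exact permutation p = 0.0556), where fewer pairings are possible. Relations that had not passed 0.05 changed sign. That with the pan-leukocyte list was 0.989 without the 2 libraries farthest from the median and 0.0169 when centred, and that with the number of genes above 0 was -0.0298 under median-of-ratios rescaling; the cause was not tested. The libraries form 1 group, so no pairing of samples between groups was possible, while genes were compared in pairs within each library. Depth is unknown, so values of 0 have no limit.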
